A study of Gallus gallus with 6 samples.

Results

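Animal cells build cholesterol from acetyl-CoA in a chain of enzymes that first makes mevalonate, then the isoprenoid farnesyl diphosphate, then squalene, and finally closes and trims the sterol rings. In mammals the genes of this chain are switched on together by SREBP transcription factors. These are held in the endoplasmic reticulum by the sterol sensor SCAP and the retention proteins INSIG1 and INSIG2 when sterol is plentiful, and are released by the proteases MBTPS1 and MBTPS2 when it is scarce. The 29 genes listed here were chosen by name to cover these synthesis enzymes, the SREBP machinery and a few proteins that move or store cholesterol, and 1 probe set per gene was used, that with the highest mean over the 6 arrays. IDI1, TM7SF2 and EBP had no probe set under those symbols in the platform annotation and were dropped, which left 26 genes of 13009 with a probe set assigned to a single gene.

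The samples were chicken DT40 cells, a B cell line, in 3 groups of 2 single-colour Affymetrix arrays: K11-5 cells, labelled H1 complete null; K11 cells, in which the endogenous H1 was knocked out; and wild type cells. All 3 groups were sampled in exponential growth at 39.5 °C with 100 nM Z-VAD-FMK, a pan-caspase inhibitor, added because cells without H1, the linker histone of chromatin, enter apoptosis. The labels do not say how the 2 mutant lines differ beyond these names, whether either is 1 clone, or whether arrays of 1 group were separate cultures. The p-values therefore rest on a spread between arrays that may be technical. Fewer cells expressing a gene and less RNA per cell cannot be told apart in such extracts.

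Signals are quantile-normalized probe set intensities without a unit, and the background level was 11.4, taken from control probe sets with no chicken target. On the deposited scale the trimmed mean signal ran from 48.0 to 77.7 over the arrays. Actin signal at the 3' end over that at the 5' end depends on RNA integrity and labelling. This ratio was 6.29 and 5.28 in K11-5, 9.23 and 9.31 in K11, and 8.10 and 7.15 in wild type. For GAPDH the same ratio was 0.91 and 0.80 in K11-5, 0.83 and 0.82 in K11, and 0.89 and 0.92 in wild type. Of 11 B cell markers on the array 7 were above background in every array, and their summed signal was 6841 and 2955 in K11-5, 10270.1 and 11513 in K11, and 6359 and 7351 in wild type. IGLL1 made up much of that sum and rose in both lines, with 3809 and 2353 in K11-5, 4720 and 5409 in K11, and 1354 and 1216 in wild type. Of 10 B cell markers tested, 4 fell in K11-5 and 0 fell in K11 by limma's adjusted p, against 3.61% and 5.20% of all tested genes. In K11 3 of these markers had an unadjusted p under 0.05 by limma, as had 2669 of 10015 tested genes. Of the 3, PAX5 and IGLL1 were higher than in wild type and CD72 was lower. The 4 that fell in K11-5 were EBF1 (-2.73 ± 0.39), CD79B (-4.34 ± 0.66), BTK (-1.75 ± 0.22) and CD72. CD72 was below background in both K11-5 arrays and at least 21.8-fold lower than in wild type. The K11-5 arrays were far apart in POU2AF1 (425 and 2.02) and JCHAIN (1808 and 170), which passed in neither line. The T cell list summed to 295 and 504 in K11-5, 1295 and 999 in K11, and 1238 and 1299.5 in wild type, with CD3E, CD4, CD28 and LCK below background in all arrays. Most of that sum was CD3D, which fell in K11-5 (-1.99 ± 0.26, adjusted p = 0.00308), while CD247, CD8A and CD5 passed in neither line. The 2 erythroid and 7 fibroblast markers summed to at most 33.2 and 88.1 in any array, and none was above background in all arrays. Summed signals of the 4 myeloid markers were 939 and 1134 in K11-5, 1356 and 1230.1 in K11, and 488 and 583 in wild type, with LYZ below background throughout. CEBPB rose by 2.01 ± 0.37 in K11-5 (adjusted p = 0.0137) and by 2.47 ± 0.37 in K11 (adjusted p = 0.00492). SPI1 and CSF1R passed in neither line. The 5 hepatocyte markers summed to 1540 and 1433 in K11-5, 2039.99 and 1771 in K11, and 993 and 1029 in wild type, nearly all of it from TF, transferrin. TF rose in both lines (adjusted p = 0.0241 in K11-5 and 0.00342 in K11), and the others of this list passed in neither. The part of these markers and of RNA quality in the values below was not tested.

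Part of the cholesterol synthesis genes fell in both H1 mutant lines against wild type. In K11 the genes that fell lay in the mevalonate steps and the sterol steps, with INSIG1 and STARD4 beside them, and the falls were 1.74-fold to 3.76-fold among the 10 genes past the threshold. In K11-5 the 5 genes past the threshold were 2.03-fold to 2.73-fold lower, and no gene rose past the threshold in either line. Of the 26 genes 24 passed the filter on low signal and were tested; CYP51A1 and SREBF1 did not.

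**Figure D1:**
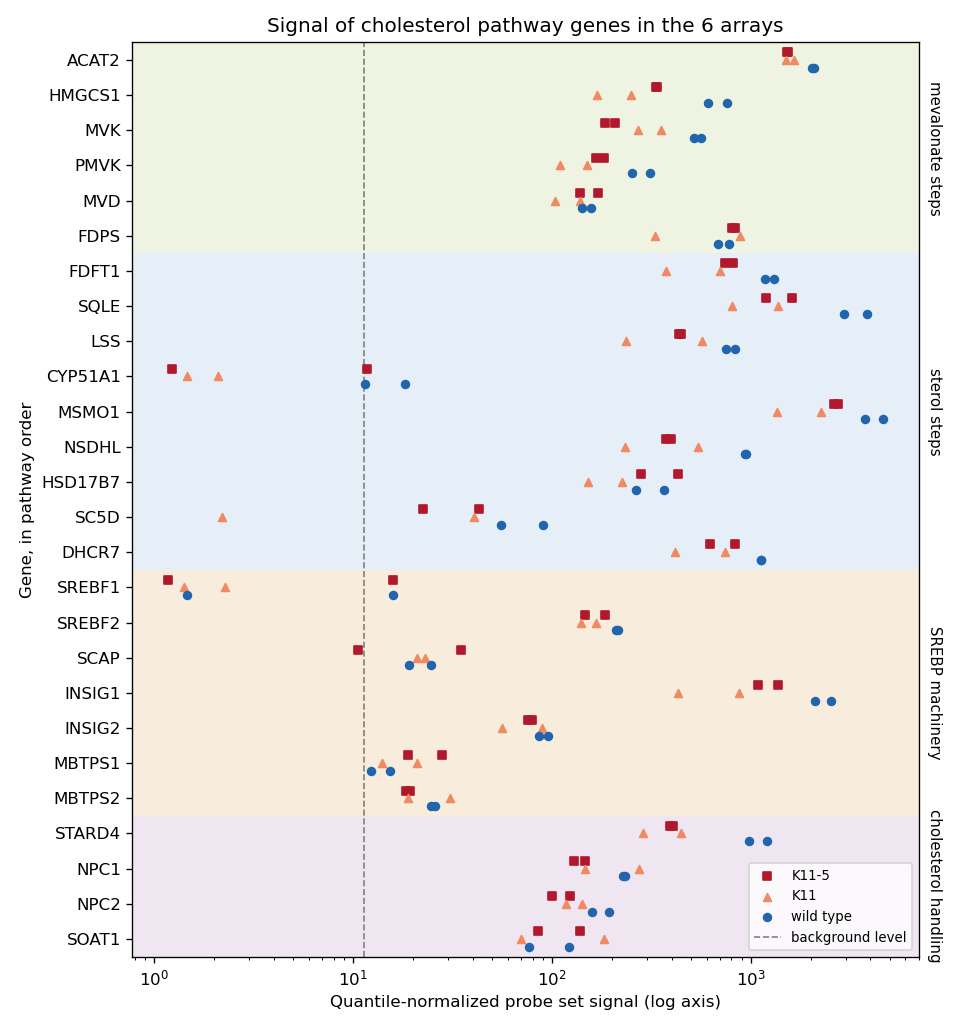
Signal of the 26 genes in each of the 6 arrays on a log axis, ordered by pathway step and shaded by role; squares are K11-5, triangles K11 and circles wild type, and the dashed line is the background level of 11.4. In most enzymes of the mevalonate and sterol steps both wild type circles lie to the right of the other points, while SCAP, MBTPS1, MBTPS2, CYP51A1 and SREBF1 lie near or below background.

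The mevalonate steps start with ACAT2, the cytosolic thiolase that joins acetyl groups, which had signals of 1519 and 1543 in K11-5, 1502 and 1643 in K11, and 2076 and 2028 in wild type. All 4 mutant arrays were below both wild type arrays, but the differences did not pass the threshold (limma adjusted p = 0.0745 in K11-5 and 0.0847 in K11). HMGCS1, which makes HMG-CoA, had 333 and 336 in K11-5, 168 and 252 in K11, and 760.4 and 608 in wild type. Its 3 groups did not overlap, with K11 lowest, and it fell by 1.02 ± 0.22 (SE) on the log2 scale in K11-5 (adjusted p = 0.026) and fell by 1.72 ± 0.22 in K11 (adjusted p = 0.00249).

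MVK, mevalonate kinase, was the only enzyme with both K11-5 arrays below both K11 arrays, as in 22.5% of all tested genes. It had 185 and 207 in K11-5, 270.3 and 355 in K11, and 516 and 563 in wild type, so K11-5 was lowest. It fell by 1.45 ± 0.19 in K11-5 (adjusted p = 0.00309) and fell by 0.80 ± 0.19 in K11 (adjusted p = 0.0336); the difference between the lines, -0.66 ± 0.19, did not pass (adjusted p = 0.104). PMVK, the next kinase, had 167 and 183 in K11-5, 109.9 and 151 in K11, and 312 and 254 in wild type. The groups again did not overlap, and PMVK fell past the threshold in K11 alone of the 2 comparisons with wild type, with a log2 fold change of -1.12 ± 0.22 (adjusted p = 0.0166), against -0.68 ± 0.22 in K11-5 (adjusted p = 0.118).

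The last mevalonate steps measured did not follow. MVD, the decarboxylase that gives isopentenyl diphosphate, had 171 and 138 in K11-5, 104 and 139 in K11, and 157 and 142 in wild type. FDPS, farnesyl diphosphate synthase, had 808 and 835 in K11-5, 330.0 and 884 in K11, and 779 and 683 in wild type. In MVD K11-5 overlapped both other groups, and K11 lay just below wild type. In FDPS both K11-5 arrays lay just above wild type and the K11 arrays were far apart. Neither gene passed the threshold in any comparison. MVD lies on chromosome 11 and FDPS on chromosome 25 of RefSeq assembly GRCg7b. Against wild type these chromosomes as a whole were shifted by 0.44 and 0.47 in K11-5 and by 0.48 and 0.52 in K11. PMVK, which fell in K11, lies on chromosome 25 too. The part of these shifts in the difference between these genes was not tested.

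The sterol steps begin with FDFT1, squalene synthase, which commits farnesyl diphosphate to sterols. It had 739 and 814 in K11-5, 375 and 702 in K11, and 1303 and 1176 in wild type. Both lines lay below wild type, and FDFT1 fell past the threshold in K11, with a log2 fold change of -1.27 ± 0.25 (adjusted p = 0.0153), against -0.67 ± 0.25 in K11-5 (adjusted p = 0.164). SQLE, squalene epoxidase, had 1198 and 1618 in K11-5, 804 and 1374 in K11, and 3825 and 2941 in wild type, with the lines overlapping and both below wild type. It fell by 1.27 ± 0.24 in K11-5 (adjusted p = 0.0175) and fell by 1.67 ± 0.24 in K11 (adjusted p = 0.00474).

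LSS, the cyclase that folds squalene epoxide into lanosterol, had 445 and 434 in K11-5, 237 and 571 in K11, and 833 and 754 in wild type. All mutant arrays were below wild type, but the K11 arrays were far apart and LSS did not pass (adjusted p = 0.179 in K11-5 and 0.0681 in K11). CYP51A1, the lanosterol demethylase, was not tested: it had 11.8 and 1.23 in K11-5, 2.11 and 1.47 in K11, and 18.2 and 11.5 in wild type. With both K11 arrays below background, its K11 signal was at least 1.24-fold lower than in wild type, a bound that sets the wild type mean against the background level with 2 added to both signals.

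Of the enzymes that remove the methyl groups and shift the double bonds of the sterol, MSMO1, a methyl sterol oxidase, was the brightest member. It had 2621 and 2765 in K11-5, 1360.2 and 2256 in K11, and 4641 and 3762 in wild type. The groups did not overlap, with K11 lowest, and MSMO1 fell past the threshold in K11, with a log2 fold change of -1.25 ± 0.21 (adjusted p = 0.00809), against -0.63 ± 0.21 in K11-5 (adjusted p = 0.116). NSDHL, a sterol dehydrogenase, had 376 and 399 in K11-5, 235 and 545 in K11, and 948 and 934 in wild type, so every mutant array was well below wild type. It fell by 1.27 ± 0.31 in K11-5 (adjusted p = 0.0428) and fell by 1.39 ± 0.31 in K11 (adjusted p = 0.0249).

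HSD17B7, a 3-ketosteroid reductase of this pathway, had both K11-5 arrays above both K11 arrays, as did 25.7% of all tested genes. It had 282 and 432 in K11-5, 151 and 226 in K11, and 365 and 265 in wild type, so that K11-5 overlapped wild type and K11 lay below both. Its log2 fold change did not pass in K11 (-0.75 ± 0.27, adjusted p = 0.14) or between the lines (0.91 ± 0.27, adjusted p = 0.114). SC5D, which desaturates the sterol ring, had 22.6 and 42.8 in K11-5, 2.18 and 40.7 in K11, and 90.0 and 55.8 in wild type. All mutant arrays were below wild type, 1 K11 array was below background, and SC5D did not pass (adjusted p = 0.532 in K11-5 and 0.118 in K11). DHCR7, a terminal reductase, had 625 and 833 in K11-5, 416 and 742 in K11, and 1130.4 and 1124 in wild type. The lines overlapped each other below wild type, and DHCR7 fell past the threshold in K11, with a log2 fold change of -1.02 ± 0.25 (adjusted p = 0.0355), against -0.64 ± 0.25 in K11-5 (adjusted p = 0.187).

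In the SREBP machinery, INSIG1 fell in K11 while the factor and protease genes did not pass the threshold. INSIG1, itself an SREBP target in mammals, had 1089 and 1365 in K11-5, 430.1 and 869.7 in K11, and 2526 and 2103 in wild type. Its 3 groups did not overlap, with K11 lowest and K11-5 between K11 and wild type. It fell by 1.91 ± 0.28 in K11 (adjusted p = 0.00443), and its log2 fold change in K11-5 was -0.92 ± 0.28 (adjusted p = 0.0897). INSIG2, the related retention protein, had 79.1 and 76.2 in K11-5, 89.0 and 56.3 in K11, and 86.6 and 96.0 in wild type, with log2 fold changes of -0.23 ± 0.27 in K11-5 and -0.36 ± 0.27 in K11 (adjusted p = 0.723 and 0.504).

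SREBF2, which encodes the SREBP most tied to cholesterol genes in mammals, had 186 and 147 in K11-5, 141 and 168 in K11, and 215 and 209.6 in wild type. All mutant arrays were below wild type, with log2 fold changes of -0.36 ± 0.21 in K11-5 and -0.46 ± 0.21 in K11 that did not pass (adjusted p = 0.412 and 0.237). SREBF1 was at or below background in all but 2 arrays, with 1.18 and 15.9 in K11-5, 1.41 and 2.26 in K11, and 1.47 and 15.9 in wild type, and was not tested. SCAP, MBTPS1 and MBTPS2 had signals between 10.5 and 35.0, close to background, and did not pass in any comparison (adjusted p of 0.433 or more). At these signals the SEs of these 3 genes were 0.37 to 0.50 on the log2 scale.

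Among the cholesterol handling genes, STARD4, a carrier of free cholesterol that is an SREBP target in mammals, had 409 and 391 in K11-5, 287 and 448 in K11, and 1207 and 983 in wild type. The lines overlapped each other, far below wild type, and STARD4 fell by 1.44 ± 0.22 in K11-5 (adjusted p = 0.00627) and fell by 1.60 ± 0.22 in K11 (adjusted p = 0.00334). NPC1 and NPC2, which carry cholesterol out of lysosomes, did not pass. NPC1 had 130.0 and 147 in K11-5, 274 and 146 in K11, and 233 and 228 in wild type, and only its K11-5 arrays were both below wild type. NPC2 had 123 and 99.7 in K11-5, 141 and 118 in K11, and 194 and 159.7 in wild type, with all mutant arrays below wild type. SOAT1, which esterifies cholesterol for storage, had 84.9 and 139 in K11-5, 183 and 69.8 in K11, and 122 and 77.0 in wild type, with all groups overlapping.

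Counted together, 5 of the 24 tested genes fell and none rose in K11-5 against wild type, where 3.61% of 10015 tested genes fell and 3.50% rose by limma's adjusted p. Their median log2 fold change was -0.65, against 0.02 over all tested genes. Both K11-5 arrays were below both wild type arrays in 18 of the 24 genes and above them in 2, against 27.6% and 29.4% of all tested genes. When any single array of wild type or K11-5 was dropped, fewer of the 24 fell, and fewer of all tested genes did. When either K11 array was dropped, more fell in both sets. Dropping wild type replicate 1 gave a median of -0.53 for the 24, and dropping wild type replicate 2 gave -0.75. The median was -0.60 when K11-5 replicate 1 was dropped and -0.74 when K11-5 replicate 2 was dropped. The count of genes that fell was 0 when limma's intensity trend in the variance was left out. In that setting 8 genes of 10015 fell by limma's adjusted p. Of the members 7 had an unadjusted p under 0.05 by limma, a looser threshold at which all genes were not counted.

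In K11 against wild type 10 of the 24 tested genes fell and none rose, where 5.20% of tested genes fell and 5.07% rose. The median was -0.77, against 0.0024 over all tested genes. Both K11 arrays were below both wild type arrays in 17 genes and above them in none, against 28.0% and 27.5% of all tested genes. By role, 3 of 6 mevalonate genes, 5 of 8 sterol genes, 1 of 6 genes of the SREBP machinery and 1 of 4 handling genes fell in K11. In K11-5 these counts were 2 of 6, 2 of 8, 0 of 6 and 1 of 4. Of the 6 genes of the SREBP machinery 1 had an unadjusted p under 0.05 by limma in K11-5, as had 2331 of 10015 tested genes. Median log2 fold changes in K11 were -0.61, -1.26, -0.21 and -0.32 in that order of roles, and in K11-5 they were -0.55, -0.76, -0.29 and -0.70. Fewer of the 24 fell in K11 when K11 replicate 1 or either wild type array was dropped, and fewer of all tested genes did. More fell in both sets when K11 replicate 2 was dropped. Dropping wild type replicate 1 gave a K11 median of -0.69, and dropping wild type replicate 2 gave -0.85. That median was -0.60 when K11 replicate 1 was dropped and -1.09 when K11 replicate 2 was dropped. The K11 count was 16 after median centring of the arrays, where 17.5% of all tested genes fell and 2.35% rose. It was 0 without limma's intensity trend, where 5 genes of 10015 fell by adjusted p. In that setting 10 members had an unadjusted p under 0.05 by limma, a threshold at which all genes were not counted. The comparisons of K11-5 and K11 share the wild type arrays, so the values of the 2 lines are not independent.

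**Figure D2:**
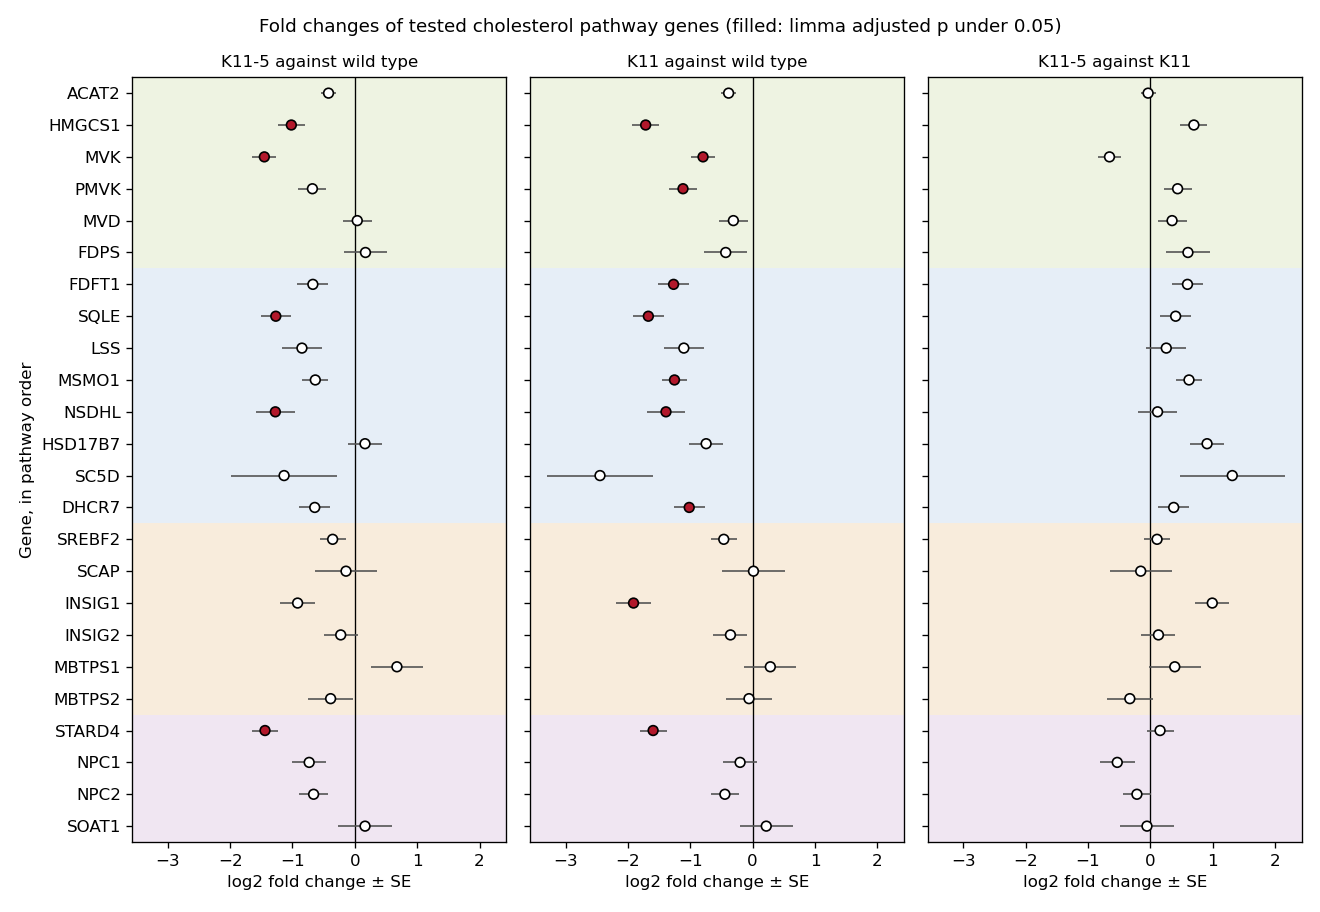
Log2 fold changes with SE bars of the 24 tested genes for K11-5 and for K11 over wild type and for K11-5 over K11, shaded by role; filled points passed limma's adjusted p threshold of 0.05. The 5 filled points in K11-5 and the 10 in K11 all lie left of 0, and none is filled between the lines.

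Between the lines, K11-5 against K11, 0 of the 24 genes passed limma's adjusted p in either direction, where 2.35% of all tested genes fell and 1.55% rose. By limma's unadjusted p 6 of the 24 were under 0.05, a share near that of all genes, 2144 of 10015. The median log2 fold change was 0.30, against 0.03 over all tested genes. Both K11-5 arrays were above both K11 arrays in 6 of the 24 genes, a share near the 25.7% of all tested genes. These were HMGCS1, PMVK, FDFT1, MSMO1, HSD17B7 and INSIG1. In 1 gene, MVK, both K11-5 arrays were below both K11 arrays, against 22.5% of all tested genes. INSIG1 had the smallest adjusted p of these 7, 0.0897, with a log2 fold change of 0.99 ± 0.28. The number that rose was 8 without K11 replicate 2, 5 on the deposited scale and 4 after median centring, where 3.42%, 5.37% and 6.12% of all tested genes rose. The members' median was -0.03 without K11 replicate 1. Over the 3 groups together, 9 of the 24 genes passed limma's moderated F-test, against 13.3% of all tested genes.

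The K11 arrays differed from each other in these genes. K11 replicate 1 was below K11 replicate 2 in 19 of the 24 genes, with a median difference of -0.57 on the log2 scale, whereas it was lower in 48.4% of all tested genes with a median difference of 0.02. In the K11-5 arrays replicate 1 was lower in 17 of 24, with a median of -0.11, against 50.2% of all tested genes. In the wild type arrays it was lower in 4 of 24, with a median of 0.15, against 49% of all tested genes. In the sterol steps the median distance to the wild type mean was -1.73 in K11 replicate 1 and -0.78 in K11 replicate 2, against -0.84 and -0.65 in the K11-5 arrays. All 8 tested sterol genes were below both wild type arrays in each K11 array, as were 28.0% of all tested genes. The actin ratios of the K11 arrays were 9.23 and 9.31, and the part of RNA quality in the gap between these arrays was not tested.

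For 11 of the genes 13 further probe sets were tested and above background. In K11 against wild type 10 of the 13 had the same sign as the brightest probe set and 6 fell, and in K11-5 the numbers were 11 and 2. Of all tested genes, each read from 1 probe set, 5.20% fell in K11 and 3.61% in K11-5. The second SQLE probe set had 706 and 840.1 in K11-5, 258 and 808 in K11, and 2836 and 2530.2 in wild type, and fell by 1.80 ± 0.39 in K11-5 and fell by 2.55 ± 0.39 in K11. The other INSIG1 probe sets had log2 fold changes of -1.65 ± 0.30 and -2.52 ± 0.38 in K11 and both fell (adjusted p = 0.0113 and 0.00572). The second STARD4 probe set fell by 1.45 ± 0.24 in K11-5 and fell by 1.36 ± 0.24 in K11, and the second LSS probe set fell past the threshold in K11, with a log2 fold change of -1.25 ± 0.27 (adjusted p = 0.0227). The second HSD17B7 probe set fell past the threshold in K11, with a log2 fold change of -1.28 ± 0.30 (adjusted p = 0.0294), where the brightest one did not pass. MVK, which fell in both lines by its brightest probe set, passed in neither by its second (-0.92 ± 0.25, adjusted p = 0.0616, in K11-5 and -0.54 ± 0.25, adjusted p = 0.239, in K11). With the next probe set used for each gene that had one tested, 4 of the 5 calls in K11-5 and 8 of the 10 in K11 were kept. HMGCS1 and NSDHL in both lines, and PMVK, FDFT1 and MSMO1 in K11, had 1 probe set, so their calls could not change. Among called genes with a second probe set, SQLE and STARD4 kept their calls in both lines and INSIG1 in K11. MVK lost its call in both lines. DHCR7 lost its call in K11 on a probe set below background (mean signal 9.22). The probe sets of opposite sign belonged to SCAP, MBTPS2 and NPC1 in K11 and to HSD17B7 and MBTPS2 in K11-5, and none of them passed in that comparison. Probe sets whose names end in s_at can detect more than 1 transcript.

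**Figure D3:**
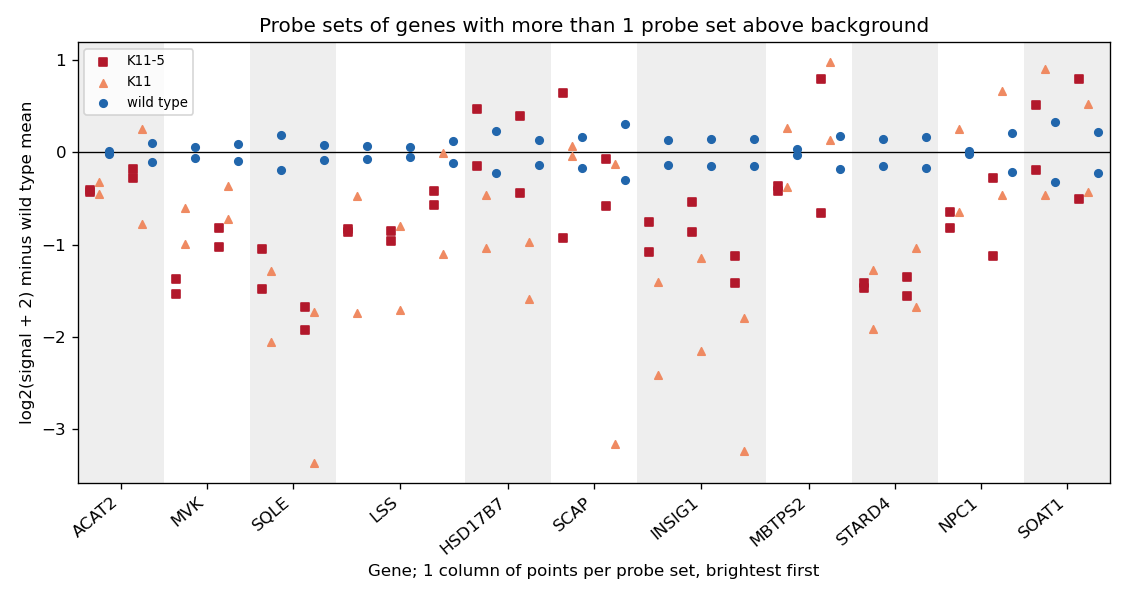
Difference of each array from the wild type mean, as log2(signal + 2), for genes with more than 1 probe set above background, with 1 column of points per probe set; squares are K11-5, triangles K11 and circles wild type. The probe sets of SQLE, INSIG1 and STARD4 place all mutant arrays below wild type.

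Whole chromosomes were shifted in both lines relative to wild type, and 9 of the 24 tested genes lie on chromosomes 2, 11, 24 and 25, where the median tested gene moved by over 0.2 on the log2 scale. Chromosome 2, with SQLE, INSIG1, SCAP and NPC1, was shifted by -0.39 in K11-5 and by -0.38 in K11, and chromosome 24, with SC5D, by -0.29 in K11-5 and by -0.26 in K11. Chromosomes 11, with MVD and MBTPS1, and 25, with PMVK and FDPS, were shifted the other way, by 0.44 and 0.47 in K11-5 and by 0.48 and 0.52 in K11. The Z chromosome, with HMGCS1 and STARD4, was shifted by -0.11 in K11-5 and -0.12 in K11. With the shift of its chromosome taken out of each gene, the same 10 genes fell in K11, with a median of -0.87. In K11-5 5 genes fell, of which 4 were the same. Of all tested genes 3.44% fell in K11 and 2.59% in K11-5 in this setting. SQLE no longer passed in K11-5 (-0.88, adjusted p = 0.0928), and PMVK did (-1.15, adjusted p = 0.0257). FDPS then had -0.29 in K11-5 and -0.95 in K11, and MVD had -0.41 in K11-5 and -0.79 in K11, none past the threshold.

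**Figure D4:**
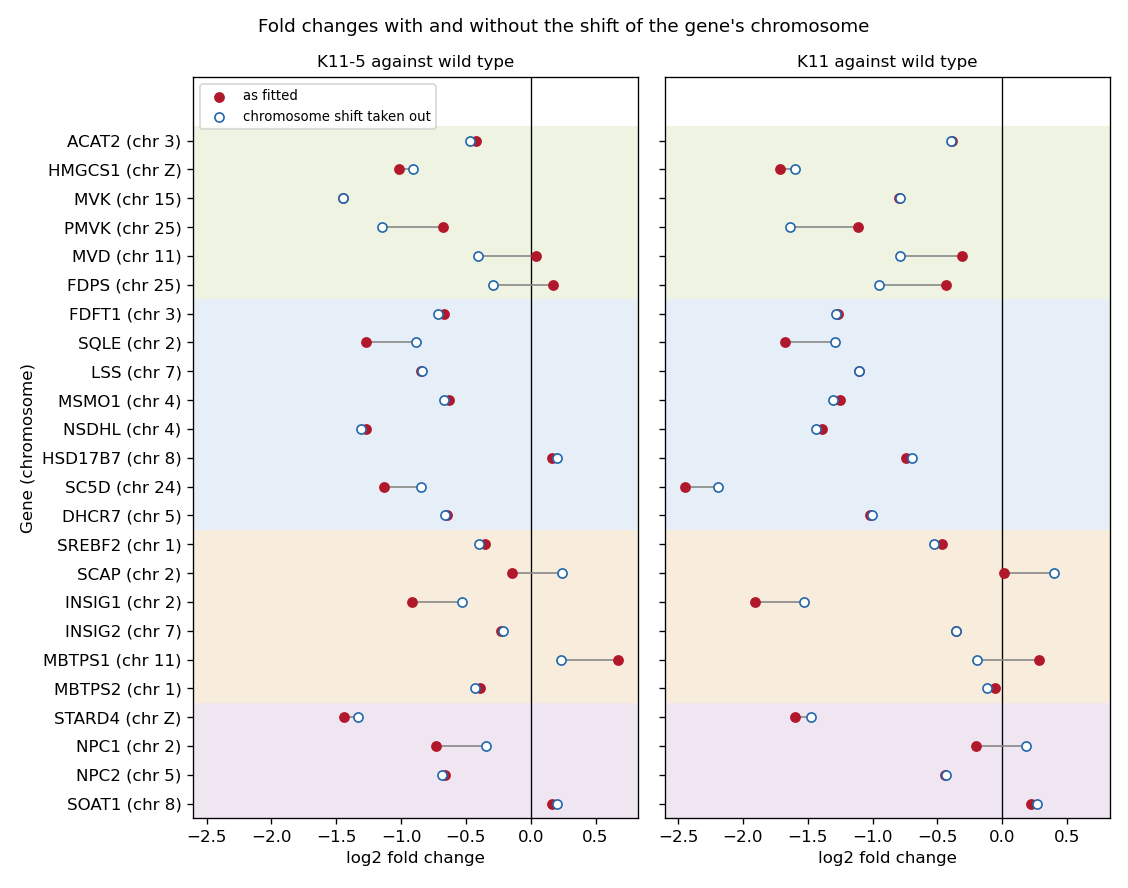
Log2 fold changes of the 24 tested genes as fitted (filled) and with the median shift of the gene's chromosome taken out (open), for K11-5 and for K11 over wild type. Genes of chromosomes 11 and 25 move left and genes of chromosomes 2 and 24 move right, while the other genes move little.

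Neighbouring parts of sterol metabolism were described from lists written with earlier results of these data known. Of 10 further genes of sterol synthesis and uptake 5 were tested, and 1 fell in each line, against 3.61% of all tested genes in K11-5 and 5.20% in K11. ERG28, a scaffold of the sterol demethylation enzymes in yeast, had 524 and 519 in K11-5, 272 and 441 in K11, and 884 and 959 in wild type, and fell by 1.41 ± 0.21 in K11 (adjusted p = 0.00572). LBR, a nuclear envelope protein that is also a sterol reductase, had 722 and 735 in K11-5, 1354 and 1307 in K11, and 1034 and 1231 in wild type. It fell by 0.63 ± 0.14 in K11-5 (adjusted p = 0.0300). In K11 its log2 fold change was 0.24 ± 0.14 and did not pass (adjusted p = 0.375). Both K11 arrays were above both wild type arrays, as in 27.5% of all tested genes. The other 3, LPIN1, TMEM97 and SCARB1, did not pass.

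In the branch that leads from farnesyl diphosphate to dolichol, ubiquinone and protein prenyl groups, 1 of 12 tested genes fell in K11-5 and 2 fell in K11, with none rising and medians of -0.08 and -0.28, against 3.61% and 5.20% of all tested genes that fell in these comparisons. NUS1, a subunit of the dolichol-making enzyme, had 1568 and 1533 in K11-5, 1387 and 1368 in K11, and 2045 and 2223 in wild type, and fell by 0.63 ± 0.12 in K11 (adjusted p = 0.014). PDSS1, a subunit of the enzyme that makes the ubiquinone tail, fell by 1.08 ± 0.26 in K11-5 and fell by 1.30 ± 0.26 in K11. PDSS1 lies on chromosome 2, and with the chromosome's shift taken out it did not pass in either line (adjusted p = 0.189 in K11-5 and 0.0672 in K11). FNTB and PDSS2, the next genes of this list by p, did not pass in any comparison (limma adjusted p of 0.0869 or more).

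Of 6 tested genes for the sterol-driven breakdown of pathway enzymes, RNF139, a membrane ubiquitin ligase, fell in both lines. ERLIN2, part of the erlin complex of the endoplasmic reticulum, rose in K11-5. Of all tested genes 3.61% fell in K11-5 and 5.20% in K11, and 3.50% rose in K11-5. RNF139 had 309 and 275 in K11-5, 243 and 258 in K11, and 586 and 448 in wild type, and fell by 0.81 ± 0.19 in K11-5 and fell by 1.03 ± 0.19 in K11. It too lies on chromosome 2 and did not pass with the shift taken out (adjusted p = 0.285 in K11-5 and 0.078 in K11). ERLIN2 had 1011 and 1277 in K11-5, 549.8 and 438 in K11, and 586 and 482 in wild type, and rose by 1.09 ± 0.19 in K11-5 (adjusted p = 0.0105). Chromosome 22, which holds ERLIN2, was shifted by 0.44 in K11-5 and by 0.40 in K11, and without that shift ERLIN2 had 0.65 in K11-5 (adjusted p = 0.0861). ERLIN1 and UBE2G2 did not pass in any comparison. Their smallest limma adjusted p was 0.0824 for ERLIN1 between the lines (0.85 ± 0.23) and 0.0577 for UBE2G2 in K11 (1.16 ± 0.32).

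Efflux, oxysterol and transport genes had medians of 0.24 in K11-5 and 0.16 in K11 over 16 tested genes. These medians rested in part on dim genes. The middle values were those of ABCA1 and MYLIP in K11-5, and of ABCA1 and OSBPL9 in K11. ABCA1 was below background in every array, and MYLIP signals ran from 2.79 to 11.7. In K11-5 3 rose and 2 fell, against 3.50% and 3.61% of all tested genes. In K11 1 rose and 1 fell, against 5.07% and 5.20%, a share near that of all genes. LIPA, the lysosomal lipase that frees cholesterol from its esters, had 470.4 and 862 in K11-5, 298 and 128 in K11, and 129.8 and 136 in wild type, and rose by 2.25 ± 0.38 in K11-5 (adjusted p = 0.00979). NCEH1, a neutral ester hydrolase, rose by 0.92 ± 0.19 in K11-5, and did not pass with the shift of chromosome 9 taken out (0.53, adjusted p = 0.174). PLTP, a phospholipid transfer protein, had 27.1 and 30.4 in K11-5, 32.9 and 24.7 in K11, and 1.39 and 8.01 in wild type, with both wild type arrays below background. It rose in both lines (adjusted p = 0.0311 in K11-5 and 0.0262 in K11), by at least 2.30-fold in K11-5 and at least 2.28-fold in K11. OSBPL1A, an oxysterol-binding protein relative, fell by 0.93 ± 0.23 in K11-5 and fell by 1.26 ± 0.23 in K11, and passed in neither line with the shift of chromosome 2 taken out (adjusted p = 0.268 in K11-5 and 0.0589 in K11). The other gene that fell in K11-5, named after its value was seen, was GRAMD1B, a cholesterol carrier at membrane contacts, with -0.99 ± 0.24 (adjusted p = 0.0401). It lies on chromosome 24, and with that chromosome's shift taken out, a setting chosen for it after seeing the data, it had -0.70 and did not pass (adjusted p = 0.156).

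The fatty acid genes that SREBP-1 drives in mammals gave 0 calls of 11 tested in K11-5 by limma. Their median was -0.10, and 1 had an unadjusted p under 0.05 by limma, as had 2331 of 10015 tested genes. In K11 3 of the 11 fell, with a median of -0.81. By limma's adjusted p the shares of all tested genes that fell were 3.61% in K11-5 and 5.20% in K11. The K11 median was the value of ME1, whose signals of 1.81 to 14.7 lay around background. In K11 9 of the 11 had a log2 fold change below 0, among them FASN (-0.22 ± 0.26) and ACACA (-0.15 ± 0.25). ACSS2 (0.79 ± 0.27) and ELOVL5 (0.47 ± 0.20) were higher and did not pass (limma adjusted p = 0.113 and 0.203). SCD, a fatty acid desaturase, had 41.4 and 27.0 in K11-5, 10.6 and 14.5 in K11, and 39.6 and 44.4 in wild type, and fell by 1.61 ± 0.36 in K11. ELOVL6, a fatty acid elongase, had 904 and 905 in K11-5, 362 and 669 in K11, and 1028 and 908 in wild type, and ACLY, which supplies acetyl-CoA, had 671 and 897 in K11-5, 248 and 466 in K11, and 1108 and 665 in wild type. Both fell in K11 (adjusted p = 0.0396 for ELOVL6 and 0.0304 for ACLY). GPAM, the next gene of this list by p, had -1.09 ± 0.32 in K11 and did not pass (adjusted p = 0.0662). The difference between the lines did not pass for any of the 11, with a median of 0.73.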

How the data were processed

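Total RNA of 6 DT40 samples was hybridised to single-colour Affymetrix chicken arrays. The authors deposited probe set intensities on a linear scale, made with GCOS, per the submitters' processing notes; the sources used here do not give its version, algorithm or scaling. Groups came from the sample labels, with 2 arrays each, and so few arrays limit the precision.

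From 38535 probe sets 96 controls were left out, values were quantile-normalized, and log2(signal + 2) was taken, which understates changes of dim genes. Probe sets with a mean log2 value at or above the 40th percentile (signal 5.83), 23063 in all, were fitted with limma 3.58.1 in R 4.3.3 (group means, eBayes with intensity trend), with Benjamini-Hochberg adjustment over all of them and a threshold of 0.05. The background level, 11.4, was the 95th percentile of 23 control probe sets. A gene was read from its probe set of highest mean. The platform annotation gave 1 symbol to 27168 probe sets, several to 177 and none to 11094; 26853 matched RefSeq assembly GRCg7b, which gave the chromosomes.

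The member genes and lists were chosen with earlier results of these data known. All members were named, and of each other list up to 4 tested genes of smallest p. Some further genes of these lists were named to show what a count or a median rested on. Alternatives were the deposited scale, median centring, a pseudocount of 16, other filters, no trend, the replicate number as a block, chromosome shifts taken out, the next probe set and each array left out. On simulated data for K11 against wild type over 23063 probe sets, the fit recovered 7 of 100 with a log2 change of -1 and 25 of 100 with -2. The changed probe sets were drawn at random from all signal levels and were few among those fitted. These shares therefore do not give the power for the member genes. No sequences were used here.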

Additional observations from a re-analysis of the deposited data

Results flagged for a closer look

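LBR, ERLIN2 and LIPA differed between the effects of the 2 mutant lines by limma's test of K11-5 against K11. They came from the list genes picked by smallest p in any comparison, this one included, so the test was not independent of the choice. In their lists 1 of 5, 1 of 6 and 1 of 16 tested genes passed between the lines. In the non-sterol branch 0 of 12 did, and in the fatty acid genes 0 of 11. LBR was lower in K11-5 than in K11 by a log2 fold change of -0.87 ± 0.14 (adjusted p = 0.0154), with both K11-5 arrays below both K11 arrays. ERLIN2 was higher in K11-5, by 1.21 ± 0.19 (adjusted p = 0.0125), and LIPA was higher in K11-5, by 1.70 ± 0.38 (adjusted p = 0.0455), again with no overlap between the lines. Of the 24 tested cholesterol genes 0 passed limma's adjusted p between the lines, where 2.35% of all tested genes fell and 1.55% rose. A count of 0 is near that share. The unadjusted p by limma was under 0.05 in 6 of the 24 and in 2144 of 10015 tested genes, which are also near shares. Groups of 2 arrays were too small for a test of outlying arrays.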

How the results depend on the processing

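Over 15 alternatives, the 15 member values past the threshold kept their direction in all 225 settings and their call in 172. The 20 called values of the other lists kept their call in 179 of 280 settings and lost it in 101. Part of the kept directions was fixed in advance. The filters, the trend, the replicate block and leaving out an array of the group outside a comparison cannot change a fold change. The same holds for the next probe set where a gene had 1 probe set. The number of members that fell in K11-5 was 5 and in K11 10. Without limma's intensity trend both were 0, with 7 members in K11-5 and 10 in K11 at an unadjusted p under 0.05. Of all 10015 genes 15 and 7 were then called by adjusted p, and all genes were not counted at the unadjusted threshold. Leaving out 1 array gave 1 to 13 in K11-5 and 3 to 14 in K11. With 1 array left out, the number of all tested genes that fell moved the same way as the members' number in both lines. Median centring gave 16 in K11, where the median of all genes was -0.29 and 1753 genes fell against 235 that rose. On the deposited scale that median was -0.35 and 1567 fell against 157 that rose. The members' median in K11 was -1.27 on the deposited scale and -1.21 with median centring, and -1.09 to -0.60 with 1 array left out; relative to all genes it was -0.92 under either scaling, against -0.77 as reported. Between the lines, 5 members rose on the deposited scale and 4 with median centring; leaving out 1 array gave 0 to 8 that rose, 0 to 1 that fell, and medians of -0.0295 to 0.61. The cause of these changes was not tested.

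The replicate numbers did not pair the arrays (r of 0.06, -0.04 and -0.03 between deviations of same-numbered arrays). With the replicate block 5 members fell in K11-5 and 10 fell in K11, against 3.50% and 4.80% of all tested genes. Between the lines 0 members differed, where 2.43% of all tested genes fell and 1.46% rose.

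Among values not past the threshold the sign turned in 59 of 855 settings, part of which cannot change a fold change. On the deposited scale, K11-5 against wild type gave -0.15 for MVD, -0.0355 for FDPS, -0.0179 for HSD17B7 and -0.013 for SOAT1, K11 against wild type gave -0.19 for SCAP and -0.22 for SOAT1, and K11-5 against K11 gave 0.38 for ACAT2, 0.0431 for NPC2 and 0.21 for SOAT1. With median centring these were -0.15 for MVD, -0.0351 for FDPS, -0.0174 for HSD17B7 and -0.0125 for SOAT1, then -0.13 for SCAP and -0.16 for SOAT1, then 0.31 for ACAT2 and 0.14 for SOAT1. With chromosome shifts taken out, K11-5 against wild type gave -0.41 for MVD, -0.29 for FDPS and 0.24 for SCAP, and K11 against wild type gave -0.19 for MBTPS1 and 0.18 for NPC1. The next probe set gave -0.0247 for HSD17B7 and 0.0722 for MBTPS2 in K11-5, -1.64 for SCAP, 0.56 for MBTPS2 and 0.10 for NPC1 in K11, and between the lines 0.0285 for ACAT2, 1.31 for SCAP, -0.10 for STARD4 and 0.10 for SOAT1. With 1 array left out, K11-5 against wild type ran from -0.11 to 0.19 for MVD, -0.14 to 0.47 for HSD17B7, -0.92 to 0.64 for SCAP and -0.19 to 0.51 for SOAT1. K11 against wild type ran from -1.14 to 0.28 for FDPS, -0.15 to 0.18 for SCAP, -0.38 to 0.26 for MBTPS2, -0.65 to 0.25 for NPC1 and -0.46 to 0.90 for SOAT1. K11-5 against K11 ran from -0.10 to 0.0279 for ACAT2, -0.11 to 1.31 for FDPS, -0.38 to 0.89 for LSS, -0.49 to 0.72 for NSDHL, -0.36 to 2.99 for SC5D, -0.0419 to 0.79 for DHCR7, -0.0591 to 0.27 for SREBF2, -0.94 to 0.63 for SCAP, -0.19 to 0.45 for INSIG2, -0.16 to 0.47 for STARD4 and -0.74 to 0.63 for SOAT1. Signals of SCAP, MBTPS1 and MBTPS2 near background limit what could be detected there.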
